A study of Mus musculus with 15 samples.

Results

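The response described here is that of D1 cells, a growth factor-dependent line of splenic dendritic cells (DCs) from C57BL/6 mice, to 4 h of curdlan in the presence of FK506. It was read from 6 of the 15 arrays, chosen by their labels alone: 3 arrays of cells given curdlan at 10 µg/ml together with FK506 for 4 h, and 3 arrays of nontreated D1 cells. All 19937 genes that the array measures by a probe set of 1 gene symbol were tested. The other 9 arrays came from the same line after curdlan alone for 2 or 4 h and after curdlan with FK506 for 2 h, again 3 arrays each, and 2 of these groups serve below for comparison. No agent was shared by the nontreated cells and the FK506 groups, every FK506 group also received curdlan, and cells given FK506 alone were not analysed here, so the effect of the drug by itself cannot be told apart from its effect on the curdlan response. The sample titles of these arrays name FK506 only, whereas the source names and the treatment description give curdlan with FK506. A D1 culture is 1 established line, and what it shows need not hold for DCs taken from an animal.

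Curdlan is a particulate β-1,3-glucan that engages dectin-1 (Clec7a), a C-type lectin of myeloid cells that recognises fungal cell walls. Dectin-1 recruits the kinase SYK, which signals through CARD9, BCL10 and MALT1 to NF-κB and, through phospholipase Cγ2 and calcium, to the phosphatase calcineurin, whose dephosphorylation of NFAT lets these factors enter the nucleus. FK506 binds FKBP12 (Fkbp1a), and the complex blocks calcineurin. The comparison asks which transcripts these DCs change on contact with curdlan while calcineurin is blocked, though the arrays do not measure how complete that block was.

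Expression was measured on 1-colour Affymetrix Mouse Gene 1.0 ST arrays and is given as log2 RMA levels, so that a difference of 1 is a 2-fold change. Levels are comparable between arrays for 1 gene, not between genes. The number of arrays, 3 per group, limits the precision, and 95% intervals cover the spread between these arrays only. The labels call the replicates biological without saying how the cultures were kept apart, and p-values measure the spread between them. The 3 curdlan + FK506 arrays were closely alike, whereas nontreated replicate 1 stood apart from replicates 2 and 3, and for that reason counts are also given without it. The DC genes Itgax, H2-Aa, Cd74 and Zbtb46 were well detected in nontreated cells, with mean levels of 12.08, 12.7, 12.73 and 8.83. Xcr1 and Clec9a, which mark the cross-presenting DC subset, lay at 5.08 and 4.28, under the lower quartile of all gene means of 5.28, and Flt3 lay little above it at 5.93. The macrophage genes Adgre1, Csf1r and C1qb were well detected too, at 11.67, 11.98 and 11.45, while 2 of 10 measured macrophage and monocyte markers lay under the lower quartile. The labelled cell type therefore carried both DC and macrophage transcripts, while the B cell genes Ms4a1 and Cd79a were near the bottom of the scale. Lymphocyte markers were not all that low. Under the lower quartile lay 2 of 7 B cell, 4 of 9 T cell and 6 of 8 NK cell markers.

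A gene was said to have risen or fallen where limma's Benjamini-Hochberg adjusted p was under 0.05 and the fold change at least 1.5. By that rule 589 genes rose in curdlan + FK506 4 h cells against nontreated cells, which is 2.95% of those tested, and 484 fell, which is 2.43%. Together these were 1073 genes, 5.38% of all, and in each of them the 3 arrays of one group lay wholly above the 3 of the other, as they did for 37.2% of all genes. Rises were larger than falls. Of the genes that rose, 254 did so at least 2-fold, 63 at least 4-fold, 23 at least 8-fold and 7 at least 16-fold, whereas 64 genes fell at least 2-fold and 1, Nxpe5, fell at least 4-fold. The median log2 change of all genes was -0.08. The share of rises among called genes was 54.9% and depended on the scaling, since centring each array on its median gave 710 rises and 342 falls, a share of 67.5%. Without nontreated replicate 1 falls were the more numerous, at 576 against 522 rises. In cultured cells a lower level can mean fewer cells of a kind or less RNA per cell, and arrays of whole cultures cannot tell these apart.

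**Figure D1:**
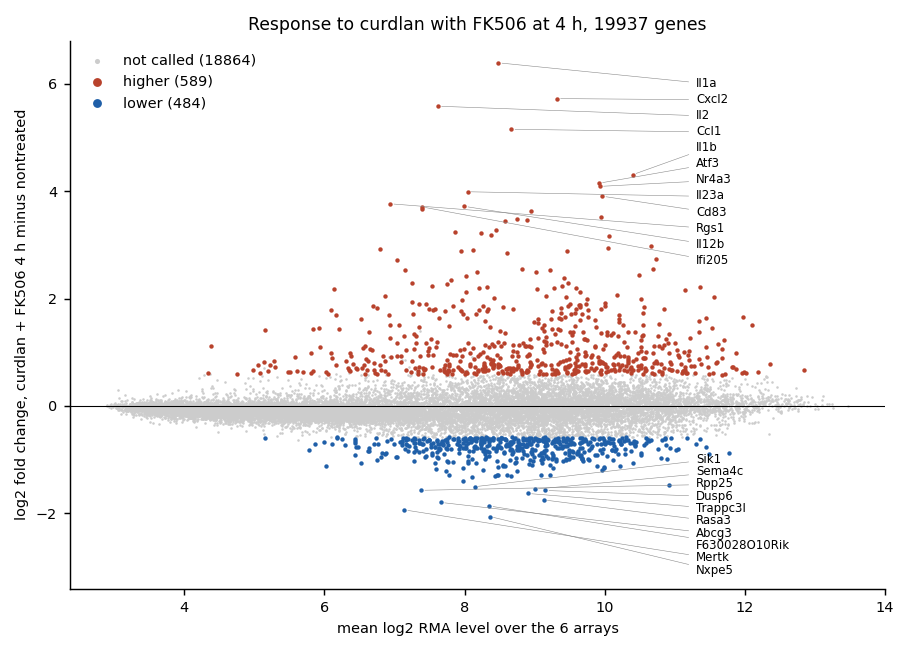
Log2 fold change of each of 19937 genes in curdlan + FK506 4 h cells against nontreated cells (vertical axis) plotted against its mean log2 RMA level over the 6 arrays (horizontal axis). Red points are the 589 genes that rose and blue points the 484 that fell, the named genes are the 12 largest rises and 10 largest falls, and the rises reach 6.39, for Il1a, while the falls end at -2.06, for Nxpe5.

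The largest rises were of inflammatory cytokines and chemokines. Il1a, the precursor of interleukin-1α, read 4.98, 5.62 and 5.26 on the nontreated arrays and 11.64, 11.68 and 11.7 on the curdlan + FK506 4 h arrays, a rise of log2 6.39 ± 0.12 (SE, n = 3 per group), or 83.8-fold, with a limma adjusted p of 2.56e-13. Cxcl2, a neutrophil-attracting chemokine, went from 6.07, 6.49 and 6.81 to 12.09, 12.23 and 12.22, a rise of 5.72 ± 0.14. Il2, the T cell growth factor that DCs also make early after microbial contact, went from 4.97, 4.72 and 4.79 to 10.38, 10.38 and 10.47, a rise of 5.58 ± 0.08 or 47.9-fold. No nontreated array came near the treated ones for these 3 genes, and replicates within a group lay far closer together than the groups. Ccl1 rose by 5.15, Il1b by 4.31, the stress-induced repressor Atf3 by 4.15 and the orphan nuclear receptor Nr4a3 by 4.09. Il23a and Il12b, which encode the p19 and p40 subunits of IL-23, rose by 3.99 and 3.72. Cd83, the classical surface marker of mature DCs, rose by 3.9, the G protein signalling regulator Rgs1 by 3.76 and the interferon-inducible Ifi205 by 3.71.

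Promoter windows are shown by a rule that took no account of motifs. It took the called gene with the largest rise in the NF-κB, antiviral and chemokine lists described below. To these it added the largest fall in the replication and mitosis lists, and Il2. No window was listed for Aurkb, the mitosis gene. Cxcl2 had the largest rise of the chemokines, and its promoter holds a paired match to the NF-κB motif. Motifs were searched on both strands of the 250 bases before the first listed start of each gene in RefSeq, build GRCm38.p6, and a match is a description of letters and not a binding site. The window lies at chr5:90903649-90903898 on the plus strand and is printed 5′ to 3′ in lower case. The NF-κB motif searched was GGGA followed, after any 2 bases, by TTCC. Capitals mark 2 overlapping matches to it, 1 on each strand from 97 to 87 bases before the start, and a match to the NFAT motif GGAAAA, on the minus strand.
Cxcl2: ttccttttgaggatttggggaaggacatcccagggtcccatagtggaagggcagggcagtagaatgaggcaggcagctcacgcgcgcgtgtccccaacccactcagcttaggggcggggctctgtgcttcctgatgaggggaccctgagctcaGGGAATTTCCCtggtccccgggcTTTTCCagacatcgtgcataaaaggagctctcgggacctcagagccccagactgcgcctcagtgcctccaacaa
The NF-κB motif was held by 1.2% of all 32851 windows in the table, by 3.2% of the windows of genes that rose under curdlan + FK506 (467 of the 589 had one) and by 0.3% of those of genes that fell (399 of 484). It was held by 5.5% of the 235 windows of genes that were lower with FK506 than under curdlan alone. Of all genes tested, 15613 had a window, and 1.1% of these held it, counted once per gene as in the sets. All 32851 windows include further starts of some genes. GGAAAA was held by 20.4% of all windows and by 19.9% of those of genes tested. The shares were 20.8% for the genes that rose and 23.8% for the genes lower with FK506.

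The receptor and its kinase moved little or modestly. Clec7a read 10.29, 10.5 and 10.44 in nontreated and 10.52, 10.6 and 10.57 in curdlan + FK506 4 h cells, a difference of 0.15 with a 95% interval of 0.05 to 0.27 that stays inside the fold threshold of log2 0.585. Syk rose by 0.66 ± 0.06 (SE), while Card9 differed by -0.33 (interval -0.42 to -0.23). Of 23 measured components of dectin-1 signalling, 5 rose and none fell, namely Syk, the NF-κB-inducing kinase Map3k14 (1.63), the TPL2 kinase Map3k8 (1.26), Src (1.19) and the paracaspase Malt1 (0.9). The list had a median of 0.16. Among 32 genes of calcium, calcineurin and NFAT signalling, Nfat5, the tonicity-responsive NFAT that calcineurin does not control, rose by 0.68 and the IP3 receptor Itpr2 fell by 0.62 (-0.54 with arrays centred, under the fold threshold). Without nontreated replicate 1 the value of Nfat5 was 0.58, under the fold threshold. The calcineurin catalytic subunit Ppp3ca differed by -0.23 (interval -0.36 to -0.1), the drug's partner Fkbp1a by 0.33 (interval 0.26 to 0.41), Nfatc1 by 0.38 (interval 0.27 to 0.49) and Nfatc2 by -0.26 (interval -0.36 to -0.17). None of these 4 passed the fold threshold.

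Most measured NF-κB subunits and inhibitors that NF-κB itself induces rose. Of 20 measured, 15 rose and none fell, with a median log2 change of 1.34 against -0.08 over all genes, and the count was again 15 without nontreated replicate 1. Nfkbid, a nuclear IκB protein, read 8.38, 8.55 and 8.5 in nontreated and 11.65, 11.62 and 11.64 in curdlan + FK506 4 h cells, a rise of 3.16 ± 0.06 (SE) at a limma adjusted p of 1.66e-13. Tnfaip3, the ubiquitin-editing inhibitor A20, rose by 2.89, Tnfaip2 by 2.73 and Nfkbiz, the IκBζ cofactor of secondary response genes, by 2.24. All 4 were separated from the nontreated arrays on every array. Others that rose, chosen after their values were seen, were the subunits Rel (1.23), Relb (1.1) and Nfkb2 (1.3) and the inhibitors Nfkbia (1.38) and Nfkbie (1.37). The subunit Rela, which is regulated by location more than by level, differed by 0.27 (interval 0.17 to 0.38).

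The same genes after 4 h of curdlan without the drug gave the test of what differed with FK506. Over all genes, 306 were lower with FK506 than with curdlan alone, which is 1.53% of those tested, and 42 were higher with FK506, which is 0.211%. The arrays of these groups did not overlap for 36.3% of all genes. Of the 20 NF-κB genes, 1 was lower with FK506 and none higher. That 1 was Ikbke, an IκB kinase-related kinase that activates IRF3, which rose by 2.23 under curdlan + FK506 and was a further 1.27 ± 0.08 higher (SE) under curdlan alone. For 18 of the 20 the 95% interval of the difference stayed inside ±0.585. Over all genes tested that share was 95.7%. Smaller differences were nonetheless common in the list, since 11 of the 20 had an unadjusted p under 0.05, as had 20.1% of all genes, and 9 an adjusted p under 0.05, all 9 lower with FK506. Nfkbid read 12.2, 12.15 and 12.16 under curdlan alone, 0.53 above the FK506 arrays with an interval of 0.41 to 0.65 that reaches past the threshold, whereas Tnfaip3 differed by 0.1 (-0.04 to 0.23) and Nfkbiz by 0.08 (-0.03 to 0.19). The Nfkbid window is shown as that of the largest rise in the NF-κB list. It lies at chr7:30421481-30421730, plus strand, with 1 match to GGAAAA in capitals.
Nfkbid: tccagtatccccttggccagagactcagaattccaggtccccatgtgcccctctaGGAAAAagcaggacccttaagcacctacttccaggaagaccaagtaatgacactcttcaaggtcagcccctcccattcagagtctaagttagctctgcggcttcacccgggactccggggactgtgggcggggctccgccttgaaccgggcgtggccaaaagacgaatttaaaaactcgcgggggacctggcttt

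**Figure D2:**
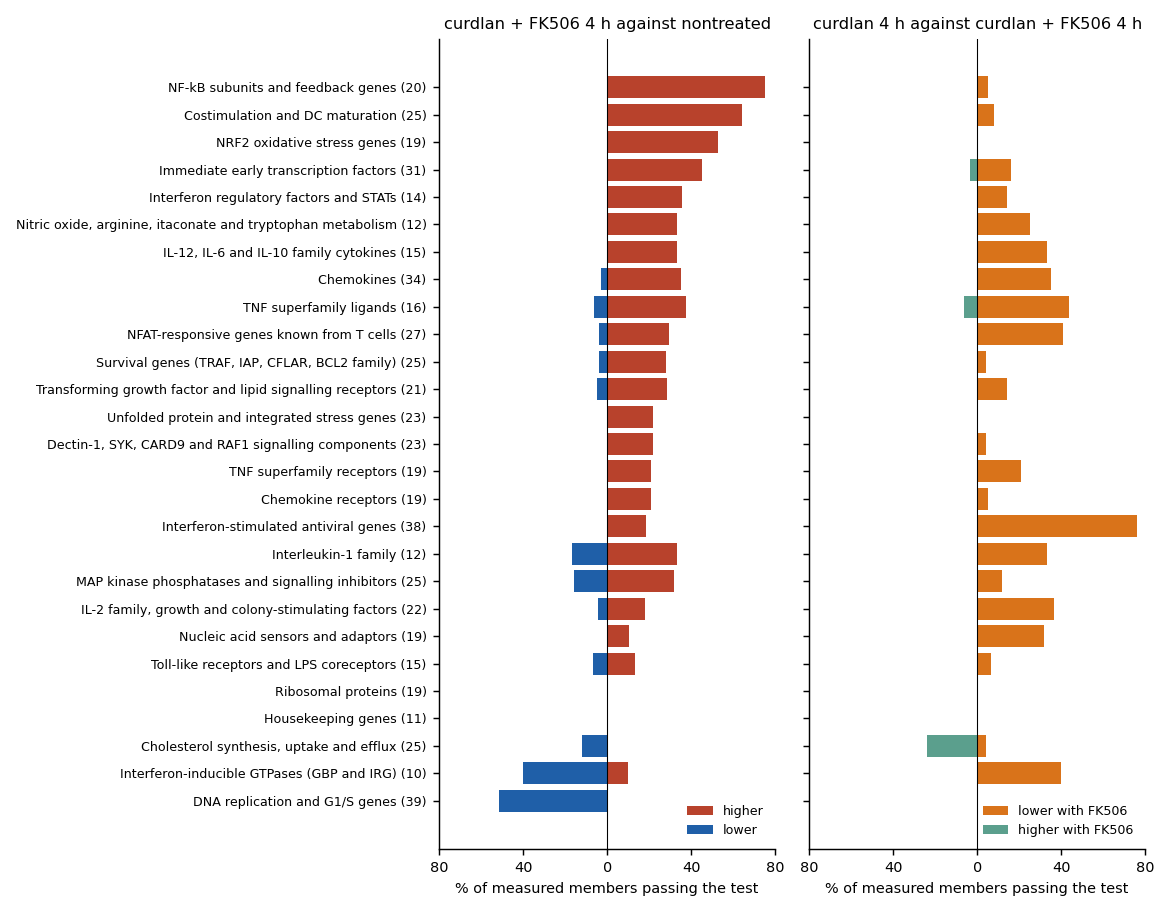
Share of the measured members of selected gene lists (number in brackets), most of them lists with many members called, that passed the test, to the right for higher and to the left for lower, in curdlan + FK506 4 h against nontreated cells (left panel) and in curdlan 4 h against curdlan + FK506 4 h (right panel). NF-κB genes lead the left panel with 15 of 20 and have 1 of 20 in the right panel, and interferon-stimulated antiviral genes have 7 of 38 in the left panel and 29 of 38 in the right.

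Genes that keep cells alive and genes of the first transcriptional wave followed. Of 25 survival genes 7 rose and 1 fell. Gadd45b, an NF-κB target that restrains JNK, rose by 3.51, the caspase-8 inhibitor Cflar by 2.3, the adaptor Traf1 by 1.9 and the anti-apoptotic Bcl2l1 by 1.31. The 1 that fell was Bcl2, by 0.64 (-0.56 with arrays centred, under the fold threshold). Of 31 immediate early transcription factors 14 rose and none fell (13 without nontreated replicate 1), with a median of 0.46. Nr4a1, an orphan nuclear receptor, went from 6.7, 6.65 and 6.53 to 9.95, 9.76 and 9.82, a rise of 3.22 ± 0.07 (SE), yet curdlan alone gave a further 1.26. Atf3 read 12, 11.95 and 12.03 with FK506 and 11.97, 12.01 and 12.02 under curdlan alone, a difference of 0.01 with an interval of -0.13 to 0.15. Maff, a small MAF protein, rose by 2.2. With FK506, 5 of the 31 were lower than under curdlan alone and 1, Fosb, was higher.

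With FK506, some known NFAT targets stayed near their nontreated level and others stood well above it. Of 27 genes listed as NFAT-responsive from work in T cells, 8 rose and 1, Cd5, fell under curdlan + FK506, and 11 were lower with FK506 than under curdlan alone. Csf2, the gene of the growth factor GM-CSF, read 6.2, 5.83 and 6.02 in nontreated and 6.31, 6.4 and 6.47 in curdlan + FK506 4 h cells, 0.37 apart, against 9.35, 9.32 and 9.33 under curdlan alone. The curdlan arrays lay 2.94 ± 0.14 (SE) above the FK506 arrays at a limma adjusted p of 1.07e-08. Egr2, an early growth response factor, differed from nontreated cells by 0.03 (interval -0.11 to 0.16) with FK506 and was 1.35 higher without it. Rcan1, the calcineurin inhibitor that NFAT induces, differed by -0.11 (interval -0.25 to 0.03) with FK506 and was 0.69 higher without it. Egr3 lay between, with a rise of 1.12 under curdlan + FK506 and a further 0.78 under curdlan alone.

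Il2 and Ptgs2 belong with those that rose well above nontreated cells and were nonetheless lower than without the drug. Il2 reached 12.22, 12.23 and 12.27 under curdlan alone, 1.83 ± 0.08 (SE) above the FK506 arrays, so that curdlan alone gave 7.41 against nontreated cells where curdlan + FK506 gave 5.58. Ptgs2, the inducible cyclooxygenase, read 6, 5.97 and 5.67 in nontreated, 8.42, 8.33 and 8.48 in curdlan + FK506 and 10.61, 10.65 and 10.56 in curdlan 4 h cells, so the 3 groups did not overlap and stood in that order. Tnf rose by 1.66 ± 0.05 (SE) with FK506 and differed by 0.32 (interval 0.2 to 0.43) between curdlan with and without it. The Il2 window is shown as that of a fixed gene, and lies at chr3:37125955-37126204 on the minus strand. Its letters include GGAAAA on both strands, in capitals, from 137 to 132 and from 48 to 43 bases before the start.
Il2: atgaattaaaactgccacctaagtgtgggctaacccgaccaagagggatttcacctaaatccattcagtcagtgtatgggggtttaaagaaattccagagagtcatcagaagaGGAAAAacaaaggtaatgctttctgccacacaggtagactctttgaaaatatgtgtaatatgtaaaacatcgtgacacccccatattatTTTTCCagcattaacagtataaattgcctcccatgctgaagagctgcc
GGAAAA was held by 34.8% of the 23 windows of the NFAT-responsive list, against 20.4% of all windows and 19.9% of those of genes tested. Other lists came near that share, with 31.2% of the 16 NRF2 windows and 28.0% of the 25 chemokine windows. The antiviral, NF-κB and replication lists stood at 18.5%, 17.6% and 15.6%.

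**Figure D3:**
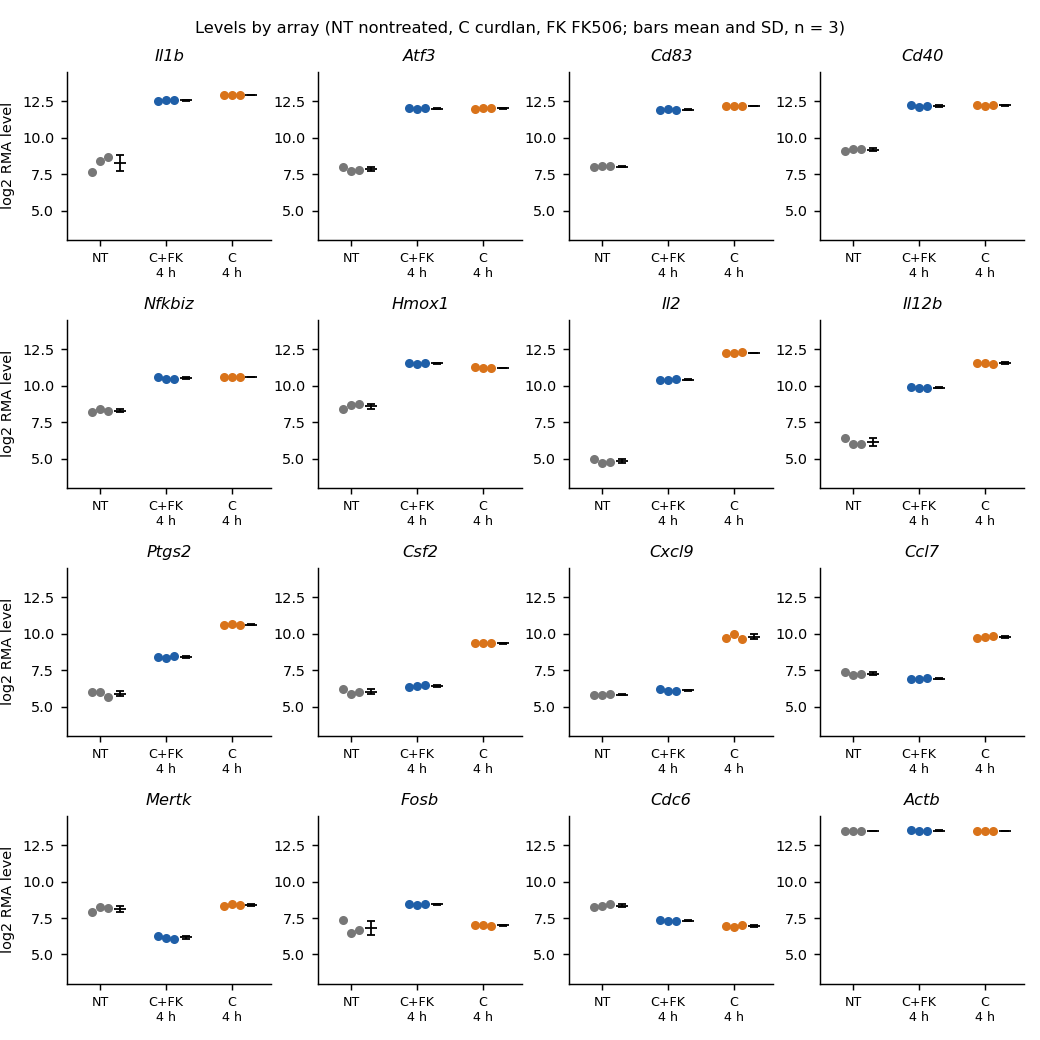
Log2 RMA level (vertical axis) of 16 genes on each of the 3 nontreated (grey), curdlan + FK506 4 h (blue) and curdlan 4 h (orange) arrays, with the mean and SD of each group beside the points. Il1b, Atf3, Cd83, Cd40, Nfkbiz and Hmox1 stand high with or without FK506, Il2, Il12b and Ptgs2 stand between the nontreated and the curdlan levels, Csf2, Cxcl9 and Ccl7 stay near the nontreated level, Mertk and Fosb are displaced with FK506 only, Cdc6 is low in both, and Actb is level.

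The cytokine families divided in the same manner. Of 12 IL-1 family genes 4 rose and 2 fell. Il1b went from 7.64, 8.4 and 8.69 to 12.5, 12.59 and 12.56, with nontreated replicate 1 the lowest, and was 0.38 higher without FK506 (interval -0.03 to 0.78). The receptor antagonist Il1rn rose by 3.49 and Il1f9, the gene of IL-36γ, by 2.92. The 2 that fell were Il18 (-0.71) and its receptor chain Il18r1 (-0.91). Of 15 genes of the IL-12, IL-6 and IL-10 families 5 rose and none fell, and 5 were lower with FK506. Il12b read 6.44, 6 and 5.97 in nontreated, 9.88, 9.84 and 9.85 in curdlan + FK506 and 11.55, 11.58 and 11.51 in curdlan 4 h cells, and Il23a was 1.72 lower with the drug. The gp130 cytokines Clcf1 and Lif rose by 1.81 and 1.17. Il6 was near the bottom of the scale, at 3.5, 3.45 and 3.58 in nontreated and 3.52, 3.65 and 3.58 in curdlan + FK506 cells, and reached 4.52, 4.34 and 4.49 under curdlan alone. Il10 differed by 0.07 (interval -0.05 to 0.19). Of 22 growth factor genes 4 rose and 1 fell under curdlan + FK506, and 8 were lower with FK506 than without. Csf1 rose by 2.84, endothelin Edn1 by 1.5 and Pdgfb by 0.93.

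Of 34 chemokines 12 rose and 1 fell, and 12 were lower with FK506 than under curdlan alone. Their median change was 0.00. Cxcl16, the membrane-bound ligand of CXCR6, read 6.69, 7.27 and 7.44 in nontreated, 10.69, 10.79 and 10.82 in curdlan + FK506 and 10.71, 10.67 and 10.59 in curdlan 4 h cells, and the interval of the difference between the last of these groups and the one before it was -0.44 to 0.22. Cxcl2 was 0.6 ± 0.14 (SE) lower with FK506 (0.56 without curdlan + FK506 4 h replicate 1, under the fold threshold), Ccl1 1.27 and Ccl4 1.97, although each had risen at least 8-fold. Ccl7, a monocyte attractant, read 7.34, 7.18 and 7.25 in nontreated and 6.86, 6.89 and 6.93 in curdlan + FK506 cells against 9.72, 9.77 and 9.8 under curdlan alone. It thus stood below every nontreated array with the drug and above all of them without it. Cxcl9, an interferon-γ-inducible CXCR3 ligand, read 5.8, 5.8 and 5.87, 6.17, 6.06 and 6.08 and 9.72, 9.96 and 9.66 in the same order, which was the largest loss with FK506 of all genes tested, at 3.68 ± 0.09 (SE). The 1 chemokine that fell was Ccl2, which went from 11.91, 11.96 and 11.91 to 11, 11.07 and 11.04 and read 12.47, 12.54 and 12.46 under curdlan alone. Of 19 chemokine receptors 4 rose, namely Ccr3 (2.17), Ccrl2 (1.39), Cxcr5 (0.76) and Cxcr2 (0.66), and of these Ccrl2 was lower with FK506, by 1.39. The migration receptor Ccr7, which mature DCs use to reach lymph nodes, differed by 0.55 (interval 0.41 to 0.69).

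Most of the measured maturation genes rose with FK506 present. Of 25 costimulation and maturation genes 16 rose and none fell, with a median of 0.98, and 15 rose without nontreated replicate 1. Cd83 went from 7.96, 8.04 and 8.04 to 11.91, 11.94 and 11.91 and read 12.18, 12.16 and 12.17 under curdlan alone. Cd40, the receptor of T cell help, went from 9.06, 9.21 and 9.23 to 12.2, 12.08 and 12.16, a rise of 2.98 ± 0.06 (SE), and differed by 0.06 (interval -0.06 to 0.18) without the drug. Ccl22 rose by 2.21 and Marcksl1 by 2.28. Chosen after their values were seen, the checkpoint ligands Cd274 and Pdcd1lg2 rose by 1.85 and 1.77, and the B7 molecules Cd80 and Cd86 by 0.98 and 0.62 (the latter 0.55 without nontreated replicate 1, under the fold threshold). The 2 of the 25 that were lower with FK506 were the TNF family ligands Tnfsf4 (1.48) and Cd70 (1.6). In the TNF ligand list as a whole 6 of 16 rose, 1 fell, 7 were lower with FK506 and 1, Tnfsf13b, was higher, a call lost without curdlan + FK506 4 h replicate 3. Tnfsf15, the ligand TL1A, rose by 3.45, and Tnfsf9, the ligand 4-1BBL, by 1.62. Of 19 TNF receptors 4 rose, led by Cd40 and the death receptor Fas (2.05), followed by Tnfrsf9 (1.2) and Tnfrsf1b (1.15).

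No gene of 11 for MHC class II presentation and none of 15 for class I presentation reached both limma's adjusted p and the fold threshold. By the adjusted p alone, 3 of the class II genes were higher and 1 lower, and 7 of the class I genes were higher and 1 lower, all under 1.5-fold. Of all 19937 genes 2053 were higher and 3122 lower by the adjusted p alone. Unadjusted, 7 and 8 had a p under 0.05, as had 34.6% of all genes. The ubiquitin ligase Marchf1, which removes MHC class II and CD86 from the surface, read 9.82, 9.97 and 9.86 in nontreated and 9.33, 9.35 and 9.36 in curdlan + FK506 cells, -0.54 apart and just inside the fold threshold. Tapbpl, a tapasin-related class I editor, differed by 0.55 and H2-Ob by 0.26.

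Oxidative stress genes controlled by NRF2 were among those that rose with the drug present. Of 19 measured 10 rose and none fell, with a median of 0.80, and 10 rose without nontreated replicate 1. Between curdlan with and without FK506 none of the 19 reached both limma's adjusted p and the fold threshold. An unadjusted p under 0.05 was nonetheless found in 6 of the 19, against 20.1% of all genes. A limma adjusted p under 0.05 was found in 5, and in 2327 of all 19937 genes. In 18 of 19, or 94.7%, the interval of that difference stayed inside ±0.585, near the 95.7% of all genes tested. Hmox1, haem oxygenase 1, read 8.39, 8.65 and 8.71 in nontreated, 11.52, 11.49 and 11.56 in curdlan + FK506 and 11.24, 11.22 and 11.21 in curdlan 4 h cells, so it was 1.23-fold higher with FK506 than without, under the fold threshold (log2 interval of curdlan minus curdlan + FK506 -0.45 to -0.15). The cystine transporter Slc7a11 rose by 2.55, sulfiredoxin Srxn1 by 1.81 and the quinone reductase Nqo1 by 1.51. The antioxidant response element that NRF2 binds, searched as TGAC followed, after any 3 bases, by GCA, was in none of the 16 windows of the list. It was in 2.5% of all windows and in 2.2% of those of genes tested. Of 23 genes of the unfolded protein and integrated stress responses 5 rose, the phosphatase subunit Ppp1r15a (1.87), the endoplasmic reticulum protein Herpud1 (1.46), Ddit3, the gene of CHOP (0.93), Chac1 (0.76) and Trib3 (0.63), and none passed both thresholds between curdlan with and without FK506, where 13 had an unadjusted and 7 a limma adjusted p under 0.05. Without nontreated replicate 2 the value of Trib3 was 0.56 and without curdlan + FK506 4 h replicate 1 it was 0.58, both under the fold threshold. None of 16 cytosolic chaperones passed both thresholds, although 8 had an unadjusted and 5 a limma adjusted p under 0.05. Chordc1, 0.68 higher, was one of those 8, with nontreated replicate 1 at 8.56 and the other 5 arrays between 9.84 and 10.28.

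**Figure D4:**
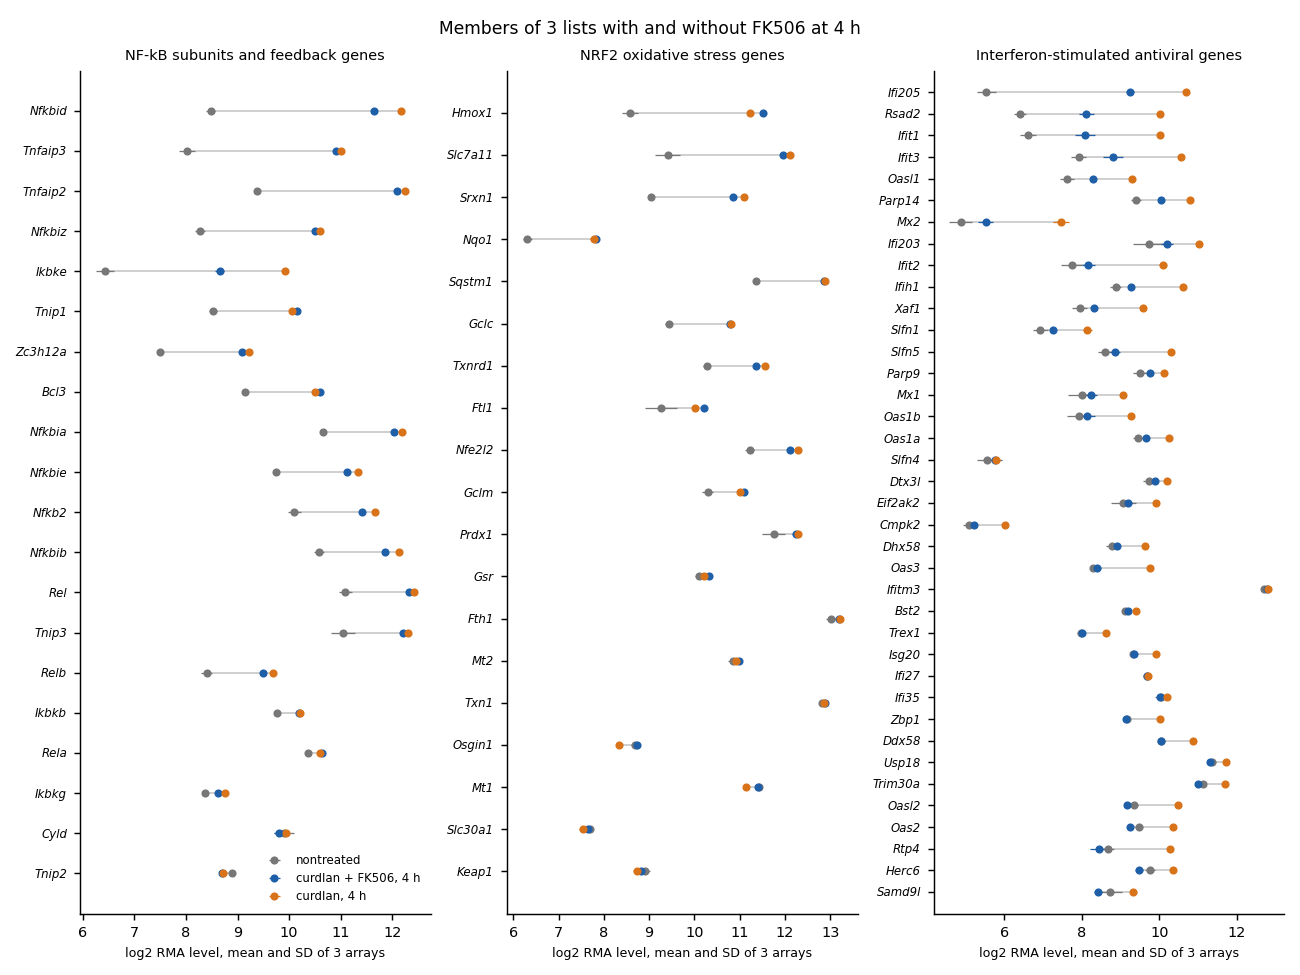
Mean log2 RMA level and SD of 3 arrays (horizontal axis) for every measured NF-κB gene, NRF2 oxidative stress gene and interferon-stimulated antiviral gene in nontreated (grey), curdlan + FK506 4 h (blue) and curdlan 4 h (orange) cells. Blue and orange points lie close together for most of the 20 NF-κB and 19 NRF2 genes, whereas for most of the 38 antiviral genes blue lies near grey.

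Interferon-stimulated antiviral genes had the largest share lower with FK506 among the lists examined. Of 38 antiviral genes 7 rose under curdlan + FK506 (5 without nontreated replicate 1) and none fell, with a median of 0.13, while 29 were lower with FK506 than under curdlan alone, at a median difference of 0.85. Ifit2, whose product binds viral RNA and which was chosen after its values were seen, read 7.43, 7.81 and 7.97 in nontreated, 8.03, 8.35 and 8.12 in curdlan + FK506 and 10.13, 10.19 and 9.98 in curdlan 4 h cells, so that every curdlan array lay well above the other 6, between which the gap was small. Rsad2, the gene of viperin, rose by 1.71 with FK506 and lay 1.89 higher without it, and the corresponding values were 1.47 and 1.94 for Ifit1 and 0.88 and 1.77 for Ifit3. Ifi205, a DNA-binding p200 protein, was the exception in size, going from 5.29, 5.78 and 5.53 to 9.12, 9.31 and 9.28 with the drug and to 10.72, 10.69 and 10.64 without. Of 10 interferon-inducible GTPases 1, Gbp5, rose (0.94) and 4 fell, Gbp9 (-0.98), Gbp7 (-0.96), Gbp4 (-0.89) and Gbp8 (-0.82). The guanylate-binding proteins come from related genes, so their probe sets may share signal and these values are uncertain. Other genes of the list, Gbp2, Gbp6, Gbp10, Irgm2 and Igtp among them, were not tested. Of 19 nucleic acid sensors and adaptors 2 rose, Ikbke and Tank (1.11), and 6 were lower with FK506.

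The regulators above those genes were less uniform. Of 14 interferon regulatory factors and STATs 5 rose, namely Stat5a (2.43) and Stat5b (1.24), which transmit GM-CSF signals, and Irf8 (1.9), Irf4 (1.03) and Irf5 (0.72). The 2 that were lower with FK506 were Irf1 (0.72, or 0.56 with probe sets averaged) and Irf7 (1.39), and neither had risen against nontreated cells, at 0.34 and 0.18. The window of Ifi205, the largest rise of the antiviral list, holds a match to the interferon-stimulated response element, searched as GAAA followed, after any 2 bases, by GAAA. That match is in capitals from 134 to 125 bases before the start, beside a GGAAAA match on the minus strand. The window lies at chr1:174031756-174032005 on the minus strand.
Ifi205: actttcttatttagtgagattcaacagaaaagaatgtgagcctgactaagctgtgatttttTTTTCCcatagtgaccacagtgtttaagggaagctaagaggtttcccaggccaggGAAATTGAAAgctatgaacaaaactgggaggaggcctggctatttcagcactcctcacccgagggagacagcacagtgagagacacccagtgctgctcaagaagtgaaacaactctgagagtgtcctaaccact
That motif was held by 33.3% of the 27 windows of the antiviral list and by 10.6% of the 235 windows of genes lower with FK506. It was held by 5.1% of those of genes that rose under curdlan + FK506, by 2.9% of those of genes tested and by 3.0% of all windows. The antiviral windows were not marked by that motif alone. The motif of the transcription factor AP-1, TGANTCA with N any base, was held by 29.6% of the same 27 windows. For AP-1 the share was 8.9% for genes lower with FK506, 6.1% for genes tested and 6.7% for all windows.

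Feedback on signalling was mixed in direction. Of 25 MAP kinase phosphatases and signalling inhibitors 8 rose and 4 fell. Dusp1 rose by 2.03, Dusp5 by 1.81 and the mRNA-destabilising Zfp36 by 1.71, whereas Dusp6, the ERK phosphatase, fell from 9.71, 10.05 and 10.06 to 8.42, 8.42 and 8.26. Dusp7, another ERK phosphatase, fell by 1.48. Socs3, the inhibitor of gp130 signalling, was the 1 of 14 SOCS and related genes that rose, by 2.13, and none of the 14 passed both thresholds against curdlan alone, where 5 had an unadjusted and 4 a limma adjusted p under 0.05. Among pathogen sensors, Tlr2 rose by 1.01 and Tlr3 fell by 1.06, and the C-type lectins Clec4e and Clec4d, which pair as receptors of mycobacterial and fungal glycolipids, rose by 1.25 and 1.14. Ly96, the MD-2 coreceptor, rose by 0.92 but by 0.53 without nontreated replicate 1, under the fold threshold, and Cd69 by 0.59 and 0.48 likewise. Cd209a, a DC-SIGN homologue, fell by 1.07. In the inflammasome list Casp4, the sensor of cytosolic LPS, rose by 1.79, Nod2 by 1.17 and Nlrp3 by 0.72, and the adaptor Pycard fell by 0.60. Pycard was under the fold threshold with arrays centred (-0.53) and without nontreated replicate 2 (-0.58) or 3 (-0.56). Kdm6b, the H3K27 demethylase of the inflammatory response, rose by 2.53 and Kdm5c by 0.65, the 2 of 29 histone methylation genes that did.

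Mir155, the locus of a microRNA that restrains SOCS1 and SHIP1 in myeloid cells, was the next largest rise after those named above and was added after its values were seen. It read 5.27, 5.75 and 5.63 in nontreated, 9.27, 9.13 and 9.27 in curdlan + FK506 and 9.75, 9.87 and 9.89 in curdlan 4 h cells, a rise of 3.67 ± 0.11 (SE) with FK506 and a further 0.61 without. Of 272 microRNA loci tested 4 rose, Mir155, Mir146 (1.41), Mir142 (0.96) and Mir680-1 (0.64), and 1, Mir25, fell (-0.7). Of all 19937 genes tested 589 rose, or 2.95%, and 484 fell, or 2.43%, so the loci passed no more often than genes at large. Such a probe set reads transcript from the locus and not the mature microRNA. The mature 5p strand, shown so that the locus can be recognised, is listed by RefSeq at chr16:84714143-84714165 on the plus strand, with its seed, bases 2 to 8, in capitals.
mmu-miR-155-5p: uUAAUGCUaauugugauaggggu

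Many DNA replication genes fell. Of 39 genes of DNA replication and the G1/S transition 20 fell and none rose, with a median of -0.60. The number was 22 without nontreated replicate 1 and 15 with arrays centred on their median, and none rose under either. Cdc6, which loads the replicative helicase, read 8.27, 8.34 and 8.45 in nontreated, 7.33, 7.29 and 7.32 in curdlan + FK506 and 6.96, 6.86 and 7 in curdlan 4 h cells, so with FK506 it fell by 1.04 ± 0.07 (SE) at a limma adjusted p of 4.91e-08. The changes were -1.01 for the helicase subunit Mcm6, -0.98 for the licensing factor Cdt1 and -0.92 for the transcription factor E2f1. None of the 39 passed both thresholds between curdlan with and without FK506, although 20 had an unadjusted and 13 a limma adjusted p under 0.05, all 13 higher with FK506. In all 39 the interval of that difference stayed inside ±0.585, as it did for 95.7% of all genes tested. Of 35 genes of mitosis 4 fell, Aurkb (-0.81), Ttk (-0.73), Foxm1 (-0.67) and Plk1 (-0.6), at a median of -0.37, while 32 of the 35 had an unadjusted p under 0.05. Plk1 was under the fold threshold with arrays centred (-0.52) and without nontreated replicate 3 (-0.58) or curdlan + FK506 4 h replicate 3 (-0.57). The window of Cdc6, the largest fall of the replication list, lies at chr11:98907901-98908150 on the plus strand. It holds a match to the E2F motif TTCCCGC, on the minus strand and in capitals from 138 to 132 bases before the start.
Cdc6: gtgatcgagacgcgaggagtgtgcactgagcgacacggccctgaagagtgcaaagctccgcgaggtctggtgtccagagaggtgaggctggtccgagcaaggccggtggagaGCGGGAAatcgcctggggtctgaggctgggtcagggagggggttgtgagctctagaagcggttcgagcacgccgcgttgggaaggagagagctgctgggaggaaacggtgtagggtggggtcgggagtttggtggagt
TTCCCGC was held by 25.0% of the 32 windows of the replication list and by 8.3% of those of genes that fell. It was held by 4.9% of those of genes that rose, by 5.3% of those of genes tested and by 3.8% of all windows.

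The other large falls were of genes with varied roles. Nxpe5 went from 9.18, 9.47 and 9.52 to 7.22, 7.35 and 7.42, so it fell by 2.06 ± 0.09 (SE) at a limma adjusted p of 6.05e-10, and was lower still under curdlan alone at 6.5, 6.53 and 6.67. The log2 changes were -1.75 for Rasa3, a GTPase-activating protein for RAS and RAP1, -1.8 for the transporter Abcg3, -1.86 for the uncharacterised F630028O10Rik and -1.63 for Trappc3l, of a vesicle-tethering complex. They were -1.57 for the ribonuclease P subunit Rpp25, -1.55 for the semaphorin Sema4c and -1.5 for the salt-inducible kinase Sik1. In each of these 8 the nontreated and treated arrays did not overlap. Most metabolic genes did not pass the test. In the glycolysis, TCA cycle and cholesterol lists the share that fell was nonetheless above the 2.43% of all genes. Of 26 glycolysis and hypoxia genes 1 rose and 3 fell, of 30 genes of the TCA cycle and oxidative phosphorylation 2 fell, Ppargc1a (-0.84) and Idh1 (-0.78), and of 25 cholesterol genes 3 fell, the cholesterol exporter Abcg1 (-0.93), the 25-hydroxylase Ch25h (-0.86) and Dhcr7 (-0.71). None of 11 housekeeping genes or 19 ribosomal protein genes passed both thresholds, although 4 of each had an unadjusted p under 0.05 and 2 of the housekeeping genes a limma adjusted p under 0.05, and Actb differed by 0.01 (interval -0.07 to 0.08).

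Genes of effector enzymes and lipid mediators differed from one another in their change with FK506. Of 12 genes of nitric oxide, arginine, itaconate and tryptophan metabolism 4 rose and none fell, of 22 matrix proteases and inhibitors 4 rose and none fell, and of 23 prostaglandin and leukotriene genes 2 rose and 2 fell. Acod1, which makes itaconate, rose by 2.9 ± 0.09 (SE) with FK506 and was 1.01 higher without it. Gch1, which makes the cofactor of nitric oxide synthase, rose by 1.24 and was 1.14 higher without FK506, and Nos2 rose by 0.67 and was 1.06 higher. Without nontreated replicate 3 the value of Nos2 was 0.55, under the fold threshold. The other gene of these 4, Odc1, rose by 0.59, but by 0.33 without nontreated replicate 1, under the fold threshold. Its call was also lost with arrays centred, with probe sets averaged and in the fit on 2 groups only. The collagenase Mmp13 rose by 0.66 and lay 3.34 ± 0.08 (SE) higher under curdlan alone, whereas the urokinase receptor Plaur rose by 1.87 and differed by 0.15 (interval -0.01 to 0.31). The prostaglandin receptor Ptger4 rose by 1.85 and Ptger3 fell by 1.28.

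Beyond Cxcl9, Mmp13, Csf2 and Ccl7, the genes that FK506 lowered most were Abhd12b (3.43), Olr1, the scavenger receptor LOX-1 (3.09), the junction protein Jam2 (2.83), Il1bos (2.67), the sodium channel subunit Scnn1g (2.64) and the mucin Muc16 (2.56). Abhd12b read 4.43, 4.37 and 4.28 in nontreated, 4.8, 4.8 and 4.8 in curdlan + FK506 and 8.13, 8.27 and 8.3 in curdlan 4 h cells. Il1bos is transcribed antisense to Il1b and rose by 1.43 with FK506, against 4.31 for Il1b, whose own difference with FK506 was 0.38. In all of these the curdlan arrays lay above every FK506 array.

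A small group moved away from the nontreated level with FK506 in a direction that curdlan alone did not take. Mertk, the receptor by which macrophages engulf apoptotic cells, read 7.9, 8.26 and 8.16 in nontreated and 6.28, 6.15 and 6.08 in curdlan + FK506 cells, where it fell by 1.94 ± 0.09 (SE), and 8.29, 8.43 and 8.4 under curdlan alone, where it differed from nontreated cells by 0.27. Tnfsf8, the ligand of CD30, fell by 0.64 with FK506 and stood at 1.23 under curdlan alone, Ccl2 fell by 0.89 against 0.56, and Ch25h fell by 0.86 against 1.51. In the other direction, Fosb, an AP-1 subunit, read 7.35, 6.44 and 6.67 in nontreated, 8.46, 8.41 and 8.47 in curdlan + FK506 and 7.01, 7.01 and 6.96 in curdlan 4 h cells, so it was 2.74-fold higher with FK506 than without. Grap2, an adaptor of immune receptor signalling, rose by 0.84 with FK506 against -0.19 under curdlan alone, and Lmna, nuclear lamin A/C, by 0.96 against 0.08. Mertk, Fosb, Grap2 and Lmna were named by size of change, while Tnfsf8, Ccl2 and Ch25h were grouped here after their values were seen. Tnfsf8 was under the fold threshold with arrays centred (-0.56) and without nontreated replicate 3 (-0.57). The 2 sets of values share the nontreated arrays.

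The other genes that were higher with FK506 included those of sterol synthesis. Of 25 cholesterol genes 6 were higher with FK506 than under curdlan alone and 1, Ch25h, lower, against 0.211% and 1.53% of all genes. Among the 6, Dhcr7 and Sc5d were marginal, at -0.6 and -0.59 for curdlan minus curdlan + FK506. With arrays centred they were under the fold threshold, at -0.57 and -0.56, as they were without some single arrays. Added after their values were seen, Hmgcs1, the synthase at the head of the pathway, was 1.68-fold higher and the sterol sensor Insig1 1.58-fold higher, with values against nontreated cells of 0.29 and 0.37. Arhgap19 was the largest difference in this direction, reading 9.61, 9.66 and 9.61 in nontreated, 8.98, 8.97 and 8.98 in curdlan + FK506 and 7.47, 7.41 and 7.5 in curdlan 4 h cells, so that it fell by less with the drug. Smco3 was 1.90-fold higher and the pseudokinase Trib2 1.85-fold higher.

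Against 2 h of curdlan + FK506, 180 genes were higher at 4 h, which is 0.903% of those tested, and 156 were lower, which is 0.782%. Centring the arrays gave 154 and 181, and repeated quantile normalization 189 and 127. Of the 20 NF-κB genes 1 was higher at 4 h and none lower by both thresholds. For 17, or 85.0%, the interval of the difference between the times stayed inside ±0.585, against 95.3% of all genes tested. An unadjusted p under 0.05 was found in 17. A limma adjusted p under 0.05 was found in 14, of which 9 were higher and 5 lower at 4 h, and in 2788 of all 19937 genes. Ikbke, the 1 that was higher by both thresholds, read 6.62, 6.3 and 6.35 in nontreated cells, 6.75, 6.93 and 7.02 at 2 h and 8.63, 8.59 and 8.75 at 4 h. Il12b was late, at 7.22, 7.34 and 7.39 at 2 h and 9.88, 9.84 and 9.85 at 4 h, as was Ifi205, at 6.59, 6.58 and 6.8 and 9.12, 9.31 and 9.28. The other large rises over this interval were Il1f9, Tnfsf15 and Serpinb9b, a serpin that inhibits granule proteases. Between the times 7 of 25 maturation genes, 8 of 38 antiviral genes and 4 of 19 NRF2 genes rose and none fell.

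More genes of the first wave were lower at 4 h than higher, although most did not pass. Of 31 immediate early factors 8 were lower at 4 h than at 2 h and 2 were higher. Fosb read 9.73, 9.63 and 9.73 at 2 h and 8.46, 8.41 and 8.47 at 4 h, and Egr3 10.29, 10.33 and 10.37 and 9.58, 9.36 and 9.49. Phlda1, a pleckstrin homology protein induced by mitogens, had the largest decline, from 10.54, 10.3 and 10.38 to 9.09, 9.03 and 9.08. Il2 and Il1a did not decline, with changes of 0.91 and 0.22 between the times, the latter with an interval of -0.04 to 0.48. Of the 39 replication genes 8 were lower at 4 h than at 2 h and none higher, with a median of -0.40 between the times.

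**Figure D5:**
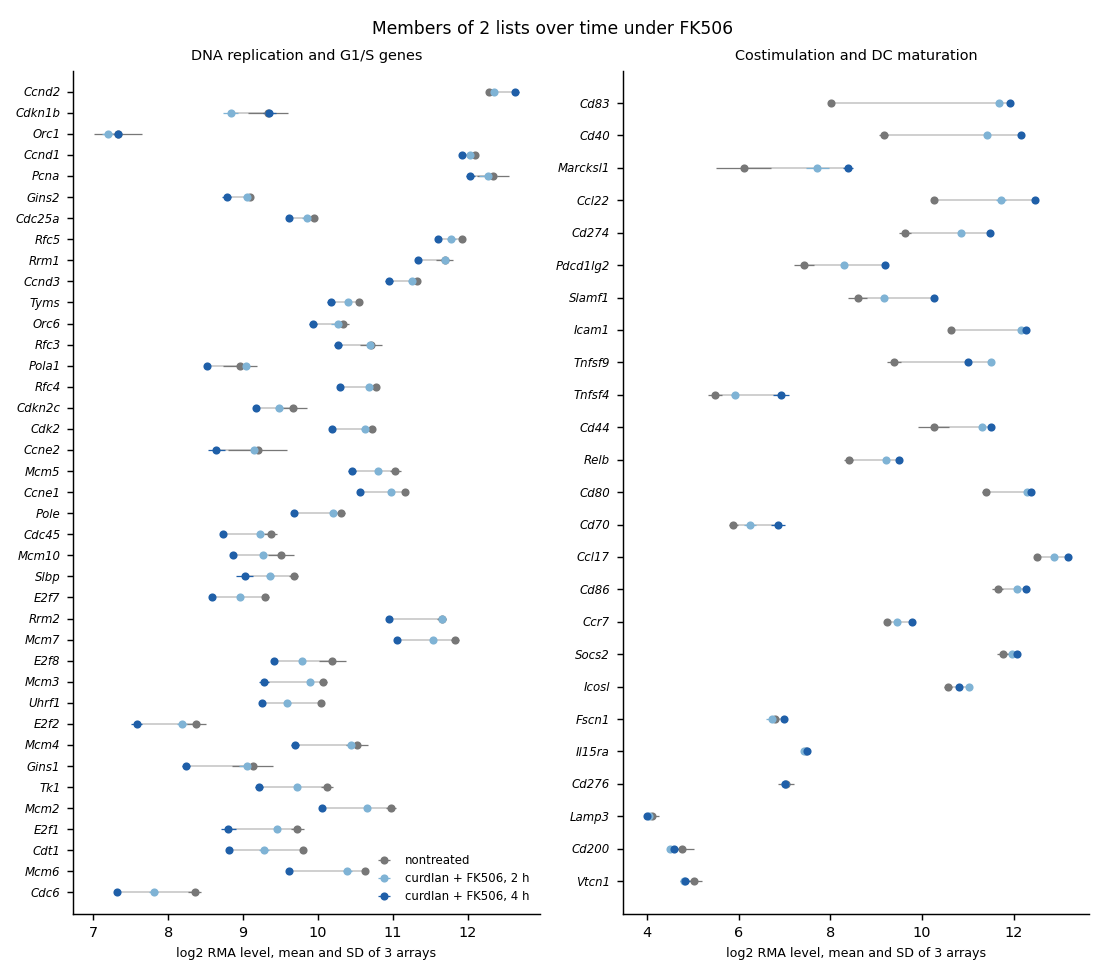
Mean log2 RMA level and SD of 3 arrays (horizontal axis) for every measured gene of DNA replication and the G1/S transition and of costimulation and DC maturation in nontreated cells (grey) and after curdlan + FK506 for 2 h (light blue) and 4 h (dark blue). Replication genes lie lowest at 4 h in most rows, with 20 of 39 below nontreated cells by the test, and 16 of 25 maturation genes lie above.

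Markers of other cell types were examined in the same arrays, and beside Mertk 2 of them passed the test. The summed linear level of 16 conventional DC markers was 32989 to 37327 in nontreated and 39186 to 40645 in curdlan + FK506 arrays, in which Irf8 and Irf4 rose and Cd209a fell. That of 10 macrophage markers was 14895 to 16128 and 15028 to 15201, so the groups overlapped, whereas their mean log2 level was 9.1 to 9.12 in nontreated and 8.84 to 8.85 in curdlan + FK506 arrays, which did not overlap. The T cell list summed to 1118 to 1163 and 682 to 731, and in it Cd5, which some DCs also express, fell by 0.96 while Cd3e lay at 6.18 and 5.97. In the mast cell list, at 497 to 588 and 642 to 673, Hdc, the histamine-forming enzyme, rose by 0.67. No marker of plasmacytoid DCs, B cells, NK cells, neutrophils, fibroblasts or erythroid cells passed both thresholds, and of their 48 measured markers 5 had an unadjusted and 3 a limma adjusted p under 0.05. The part of such shifts in the results above was not tested.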

How the data were processed

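Total RNA of 15 D1 cultures was hybridised by the authors to Affymetrix Mouse Gene 1.0 ST arrays. The deposited values are log2 levels per probe set made by the authors with RMA (background correction, quantile normalization and summarisation) in the affy package of R 2.15.2, so no array kept a scale of its own. Quantile normalization gives arrays nearly the same distribution, which hides a shift common to all genes.

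Of 34760 probe sets, 21640 carry 1 gene symbol, 1321 several and 11799 none in the platform annotation used, and those with 1 symbol were kept. Genes with several probe sets (954) were represented by the brightest, which left 19937 genes, of which 19918 are in the RefSeq table. Genes read only by probe sets shared with another symbol, Nfkb1 and Isg15 among them, were therefore not tested. limma 3.58.1 in R 4.3.3 was fitted to all 15 arrays with 1 mean per group (10 residual degrees of freedom) and moderated by eBayes, two-sided, with Benjamini-Hochberg adjustment over all genes. SE and 95% intervals come from that fit and are not adjusted. Curdlan 4 h against nontreated values are given as estimates only, since they share the nontreated arrays. The fit was tested on simulated data. No pair of arrays was identical, and array medians ran from 6.45 to 6.57.

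The 53 gene lists (984 of 1091 listed genes tested) and the comparisons were chosen with earlier results of these data known, and 1 list is not reported here. Named genes were the 12 largest rises and 10 largest falls, up to 4 called members of each response list (the 2 largest changes where none passed), called reference and cell type markers, the 10 genes most lowered and 6 most raised with FK506, the 6 largest rises and falls between times, and 22 fixed genes. Any other gene was named after its values were seen. Alternatives tried were fits on 2 groups only, without outlying or single arrays, with array weights, with other scaling, filters, priors, probe set summaries or fold thresholds, and with the replicate number as a block. Promoter windows are those of RefSeq, GRCm38.p6, with the 50 bases after the start left out.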

Additional observations from a re-analysis of the deposited data

Results flagged for a closer look

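The response to curdlan + FK506 differed between 4 h and 2 h for genes on both sides, by limma's test of the difference between the times, and the largest changes in each direction are given here. Ifi205 was 2.59 higher on the log2 scale at 4 h, Il12b 2.54, Il1f9 2.32, Tnfsf15 1.95, Serpinb9b 1.86 and Ikbke 1.75. The differences of 4 h minus 2 h were -1.34 for Phlda1, -1.25 for Fosb, -1.24 for Dusp7, -1.1 for Zfpm1, -1.09 for Iqgap2 and -1.09 for Pag1. The nontreated arrays are common to both times and cancel in these differences. No cause was tested.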

How the results depend on the processing

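Without the fold threshold the counts were 2053 higher and 3122 lower for curdlan + FK506 4 h against nontreated cells, 1202 and 1125 for curdlan 4 h against curdlan + FK506 4 h, and 1065 and 1723 between the FK506 times, as the construction of that alternative implies. Centring the arrays left 27 genes higher with FK506 in place of 42, the cause of which was not tested. Leaving out 1 array at a time gave 522 to 669 rises and 449 to 576 falls against nontreated cells, 296 to 315 genes lower and 37 to 45 higher with FK506, and 167 to 193 higher and 144 to 161 lower at 4 h than at 2 h. Without nontreated replicate 1 and curdlan 2 h replicate 3, the 2 arrays that stood apart, the first comparison gave 526 and 577, and with array weights 536 and 594. Whether rises or falls were the more numerous did turn: against nontreated cells falls led under these 2 alternatives, without nontreated replicate 1 (522 rises, 576 falls) and without the fold threshold, and between the times without the fold threshold and with arrays centred (154 higher, 181 lower). No gene named by the rule changed sign where it was called, while Actb, not called, went from 0.01 to -0.01 without curdlan + FK506 4 h replicate 1. Of 159 genes named in the first comparison 23 crossed the threshold under at least 1 alternative, Odc1 (0.59, or 0.33 without nontreated replicate 1) and Bnip3 (-0.71, or -0.49 with probe sets averaged) among them, and none of the 16 and 12 named in the other 2 comparisons did. The labels do not say whether replicate numbers pair the samples, and the main fit did not pair them. Deviations of same-numbered arrays correlated at 0.422, 0.359 and 0.002 in the first comparison. They correlated at 0.05, 0.068 and -0.002 in the second and at -0.198, -0.23 and 0.059 between the times. With the replicate number as a block the counts were 585 and 484, 305 and 42, and 180 and 155. Signal near background limits low genes such as Il6.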

Other observations

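Of 21 receptors and regulators of transforming growth factor and lipid signalling 6 rose and 1 fell, though 4 rose without nontreated replicate 1. The sphingosine-1-phosphate receptor S1pr3 rose by 1.92, the SMAD inhibitor Skil by 1.38, the nucleotide receptor P2ry2 by 1.34 and the homeodomain repressor Tgif1 by 0.74.

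Few degradative genes passed both thresholds, as was so of all genes, of which 2.95% rose and 2.43% fell. Of 29 lysosomal genes 1 rose, or 3.4%, the transcription factor Mitf, by 1.36. Of 22 phagocytic and scavenger receptors 1, the lipid scavenger Cd36, rose, by 0.98, and 1, Mertk, fell, each 4.5%. By limma's adjusted p alone 9 lysosomal genes were higher and none lower, and 6 of the receptors were higher and 7 lower. By that rule 2053 of all 19937 genes were higher and 3122 lower. The cathepsin Ctsl, added after its values were seen, read 7.25, 7.39 and 7.24 in nontreated and 7.13, 7.21 and 7.33 in curdlan + FK506 cells, and 9.06, 9.04 and 9.08 under curdlan alone, 1.84 higher. In the glycolysis and hypoxia list the glucose transporter Slc2a6 rose by 1.09, and Bnip3, the pyruvate dehydrogenase kinase Pdk1 and the muscle phosphofructokinase Pfkm stood at -0.71, -0.68 and -0.59. Pfkm was under the fold threshold without nontreated replicate 1 or 3 (both -0.58) or curdlan + FK506 4 h replicate 3 (-0.57), and Bnip3 with probe sets averaged (-0.49).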
